A study of Mus musculus with 16 samples.

Results

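Aminoacyl-tRNA synthetases are the enzymes that attach each amino acid to its tRNA. Their genes were taken from the count files by symbol, as 1 capital letter followed by "ars" with an optional 1 or 2, together with Eprs, Farsa, Farsb and Tarsl2. The rule found 38 genes among the 55367 symbols in the files, and all 38 passed the filter on low counts. They comprised 19 cytosolic enzymes, 17 mitochondrial enzymes and 2 genes, Gars and Kars, whose products serve both compartments.

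Cytosolic synthetases charge the tRNAs used by cytosolic ribosomes. A separate set, encoded in the nucleus and imported, charges the tRNAs encoded by mitochondrial DNA. Several cytosolic enzymes are held together with scaffold proteins in the multisynthetase complex, and many cytosolic synthetase genes are known targets of ATF4, the transcription factor of the integrated stress response and of amino acid shortage. Cells of the inner medulla live in a medium of high and changing osmolality, to which they adjust their transcription and protein synthesis.

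The RNA came from mIMCD3 cells, a mouse line from the inner medullary collecting duct. The cells were WT or Nrf2-/-, the latter made with CRISPR/Cas9, and the number of knockout clones is not given in the sources used here. All cells had a 5 h pretreatment with either the solvent DMSO or 10 µM sulforaphane (SFN), an activator of the transcription factor Nrf2. Isosmotic cells were taken then, and hyperosmotic cells after a further 1 h or 6 h in medium of 600 mOsm. Comparisons with isosmotic cells therefore also span that further time in culture, which cannot be told apart from the rise in osmolality. The 8 groups, with 2 libraries each, were WT DMSO isosmotic, WT SFN isosmotic, WT DMSO 1 h, WT SFN 1 h, WT DMSO 6 h, WT SFN 6 h, Nrf2-/- SFN isosmotic and Nrf2-/- SFN 1 h. Every Nrf2-/- library was therefore SFN-treated, and Nrf2-/- cells with DMSO were not analysed here. The labels number the replicates but do not say whether they came from separate cultures, so p-values measure the spread between these libraries.

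Total counts were between 34484296 and 50774875 per library, and the synthetase genes held from 104 to 26929 counts in a library. Nfe2l2, the gene of Nrf2, was at 64.0 to 78.0 CPM (counts scaled to library size with TMM factors) in isosmotic and 1 h WT libraries, at 140 to 149 CPM at 6 h and at 11.0 to 11.6 CPM in Nrf2-/- libraries. Of 12 markers of duct and kidney epithelium, 9 were above 1 CPM in every library, while the water channel genes Aqp2 and Aqp3 and the vasopressin receptor gene Avpr2 were below 1 CPM in every library. Of 11 markers of other kidney, endothelial, immune and stromal cells, 8 were below 1 CPM in every library, and their summed level was at most 22.1 CPM. The Nrf2-/- SFN 1 h pair stood apart, with a biological coefficient of variation of 0.348 between its libraries against 0.0393 to 0.128 in the other pairs.

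Synthetase transcripts made up 0.575% to 0.612% of all counts in isosmotic and 1 h WT libraries, 0.422% to 0.437% in 6 h WT libraries and 0.678% to 0.736% in Nrf2-/- libraries. These 3 ranges did not overlap. They are shares of unscaled counts. Summed TMM-scaled levels were 5555 CPM in WT DMSO and 5742 CPM in WT SFN isosmotic cells. At 6 h they were 4704 CPM with DMSO and 4745 CPM with SFN, and in Nrf2-/- SFN isosmotic cells 6706 CPM. The heat map gives single genes by library, read against isosmotic DMSO cells.

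**Figure D1:**
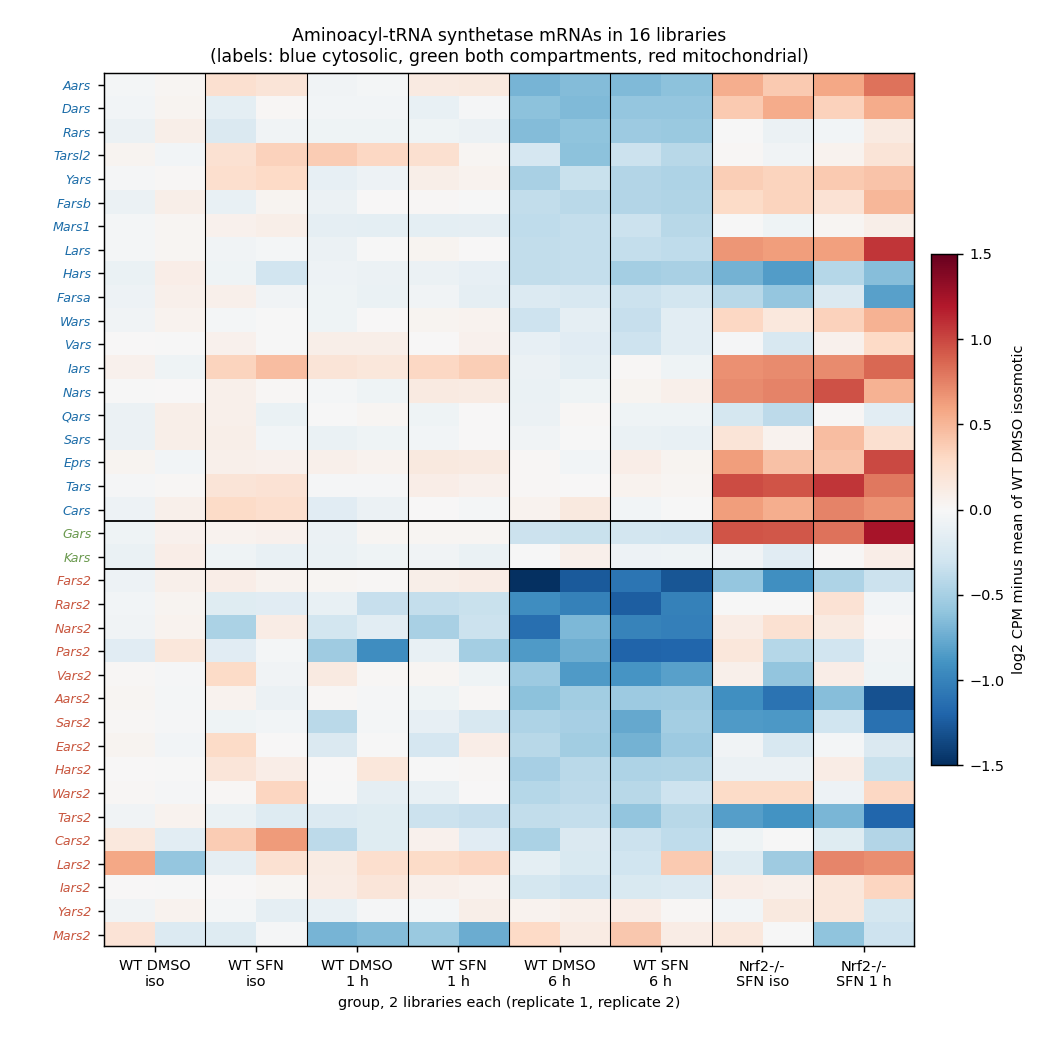
Heat map of 37 synthetase genes (rows, grouped by compartment) in 16 libraries (columns, 2 per group). Colour gives log2 CPM minus the mean of the 2 WT DMSO isosmotic libraries and saturates at 1.5 in either direction, and Fars2 is deep blue at 6 h.

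Levels were compared between genes as CPM per kilobase of the principal transcript. In WT DMSO isosmotic cells, Kars (lysyl-tRNA synthetase) had the highest level, 201 CPM per kilobase, followed by Nars (asparaginyl) at 135 and Gars (glycyl) at 127. Nars2 (mitochondrial asparaginyl) had the lowest level, 2.37 CPM per kilobase. The median over the 19 cytosolic enzymes was 72.7 CPM per kilobase, and that over the 17 mitochondrial enzymes 9.84. Tarsl2, a cytosolic threonyl-tRNA synthetase-like gene, was the one cytosolic member below that mitochondrial median, at 4.17 CPM per kilobase. The cytosolic median was 7.39 times the mitochondrial median in these cells and 8.46 times in WT DMSO 6 h cells. With SFN under isosmotic conditions it was 7.005 times in WT and 11.2 times in Nrf2-/- cells.

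The promoter windows of 3 cytosolic or dual genes are shown because these genes were called in comparisons given below. Iars was called with SFN in isosmotic WT cells, and Tars and Gars in Nrf2-/- against WT cells. Windows reach from 250 bases before to 50 bases after the RefSeq start site (GRCm38.p6), and capitals mark a match to TGATGNAA on either strand, the core of the C/EBP-ATF response element (CARE) to which ATF4 dimers bind. They lie at chr13:49681880-49682179 on the plus strand for Iars (isoleucyl-tRNA synthetase), at chr15:11399609-11399908 on the minus strand for Tars (threonyl) and at chr6:55037751-55038050 on the plus strand for Gars. All 3 windows shown hold a match. Dars, Eprs and Farsb, also higher in both comparisons of Nrf2-/- with WT cells, had windows with 0 matches and are not shown.
Iars: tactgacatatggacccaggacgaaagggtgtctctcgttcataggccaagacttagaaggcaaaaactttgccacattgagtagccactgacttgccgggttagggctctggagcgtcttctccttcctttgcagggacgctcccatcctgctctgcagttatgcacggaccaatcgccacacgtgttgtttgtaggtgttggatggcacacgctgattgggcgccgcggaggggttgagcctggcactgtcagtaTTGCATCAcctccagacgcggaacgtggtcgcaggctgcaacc
Tars: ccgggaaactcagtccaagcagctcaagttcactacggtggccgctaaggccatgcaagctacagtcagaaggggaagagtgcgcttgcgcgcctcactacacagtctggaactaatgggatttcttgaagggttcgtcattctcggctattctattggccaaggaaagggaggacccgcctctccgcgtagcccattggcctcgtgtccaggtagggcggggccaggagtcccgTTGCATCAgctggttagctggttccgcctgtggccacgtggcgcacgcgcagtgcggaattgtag
Gars: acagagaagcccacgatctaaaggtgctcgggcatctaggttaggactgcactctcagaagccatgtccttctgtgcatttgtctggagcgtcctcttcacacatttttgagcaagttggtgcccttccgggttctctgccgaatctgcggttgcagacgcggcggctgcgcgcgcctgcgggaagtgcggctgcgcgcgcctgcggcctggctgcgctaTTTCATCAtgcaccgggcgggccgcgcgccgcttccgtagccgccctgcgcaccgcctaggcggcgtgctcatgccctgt

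A RefSeq window was matched for 28 of the 38 genes. The CARE letters were found in 5 of them (17.9%), Aars, Gars, Iars, Tars and Yars, against 3.97% of all 32851 windows of this length in the mouse table. All 5 were among the 14 cytosolic or dual genes with a window, and 0 of 14 mitochondrial genes held a match. The antioxidant response element bound by Nrf2, searched as TGACNNNGC on both strands, was found in 6 of the 28 genes (21.4%) and in 12.4% of all windows. The TonE motif of NFAT5, the osmotic stress factor, was found in 0 of the 28 genes and in 0.983% of all windows. In Aars and Iars the CARE and antioxidant motifs lay in the same window, though their letters did not overlap. A match is a description of the letters and not evidence of binding.

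At 6 h of hyperosmotic stress, most synthetase transcripts were lower. Against isosmotic WT DMSO cells, 22 of the 38 genes fell and 0 rose by the quasi-likelihood test of edgeR at an adjusted p of 0.05, where 22% of all 19509 genes tested were lower and 23.9% higher. With libraries scaled to total counts instead, those shares were 29.1% lower and 20.2% higher, and the median of all genes moved from 0.05 to -0.12 while that of the members was -0.55. The median log2 fold change was -0.37 over the 38 genes and 0.05 over all genes tested. Of the mitochondrial enzymes, 12 of 17 fell, with a median of -0.47, and of the cytosolic enzymes 9 of 19 fell, with a median of -0.23. In bulk RNA, a smaller share of cells expressing a gene and less RNA per cell cannot be told apart.

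Fars2, the mitochondrial phenylalanyl enzyme (chr13:36117412-36726280, GRCm38), stood at 19.5 and 21.5 CPM before stress and 7.13 and 8.55 CPM after 6 h in DMSO cells. Its log2 fold change was -1.39 ± 0.148 (SE, adjusted p 3.6e-06), without overlap between the groups. Here and below, absence of overlap is described for genes picked by the test on the same libraries. It therefore adds no support to a call. Lyrm4 and Nrn1 overlap Fars2 on the opposite strand, and the strand setting of the counting is not given in the sources used here.

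Rars2, the mitochondrial arginyl enzyme, was at 20.6 and 21.8 CPM in isosmotic DMSO cells and 11.1 and 10.4 CPM at 6 h, a log2 fold change of -0.97 ± 0.136 (adjusted p 4.27e-05), and these groups did not overlap. Nars2 fell by 0.89 ± 0.206 on the log2 scale and Pars2, the mitochondrial prolyl enzyme, fell by 0.81 ± 0.237 on the log2 scale (adjusted p 0.0026 and 0.0114). Pars2 was a low gene, at 6.58 and 8.40 CPM before and 4.09 and 4.45 CPM after 6 h. Vars2, Aars2, Ears2, Hars2, Wars2, Tars2 and Iars2 also fell, with log2 fold changes from -0.69 (Vars2) to -0.29 (Iars2). Hars2 shares its start region with Hars on the opposite strand, so these 2 genes may not be fully separated.

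Among cytosolic enzymes, Aars (alanyl) was at 409.6 and 426 CPM in isosmotic DMSO cells and 258 and 265 CPM at 6 h, a log2 fold change of -0.68 ± 0.0977 (adjusted p 5.76e-05). Dars (aspartyl) went from 158 and 168 CPM to 106 and 103 CPM, a log2 fold change of -0.64 ± 0.101 (adjusted p 0.000121). Rars (arginyl) went from 213 and 242 CPM to 145 and 150.1 CPM, a log2 fold change of -0.63 ± 0.0994 (adjusted p 0.000126). In all 3 genes both stressed libraries were below both controls. Exosc6 overlaps Aars on the same strand. Farsb, Hars, Lars, Mars1, Tarsl2 and Yars also fell, by 0.37 to 0.42 on the log2 scale, and so did Gars, with a log2 fold change of -0.33 ± 0.117 (adjusted p 0.032).

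The genes at the other end of the range did not pass the test. Mars2, the mitochondrial methionyl enzyme, had a log2 fold change of 0.20 ± 0.156, Cars (cysteinyl) of 0.10 ± 0.0894 and Yars2 (mitochondrial tyrosyl) of 0.06 ± 0.126. Tars, at 191 and 196 CPM before and 195 and 195 CPM after 6 h, had a log2 fold change of 0.01 ± 0.0962. Kars lay between 358 and 432 CPM in all 16 libraries.

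**Figure D2:**
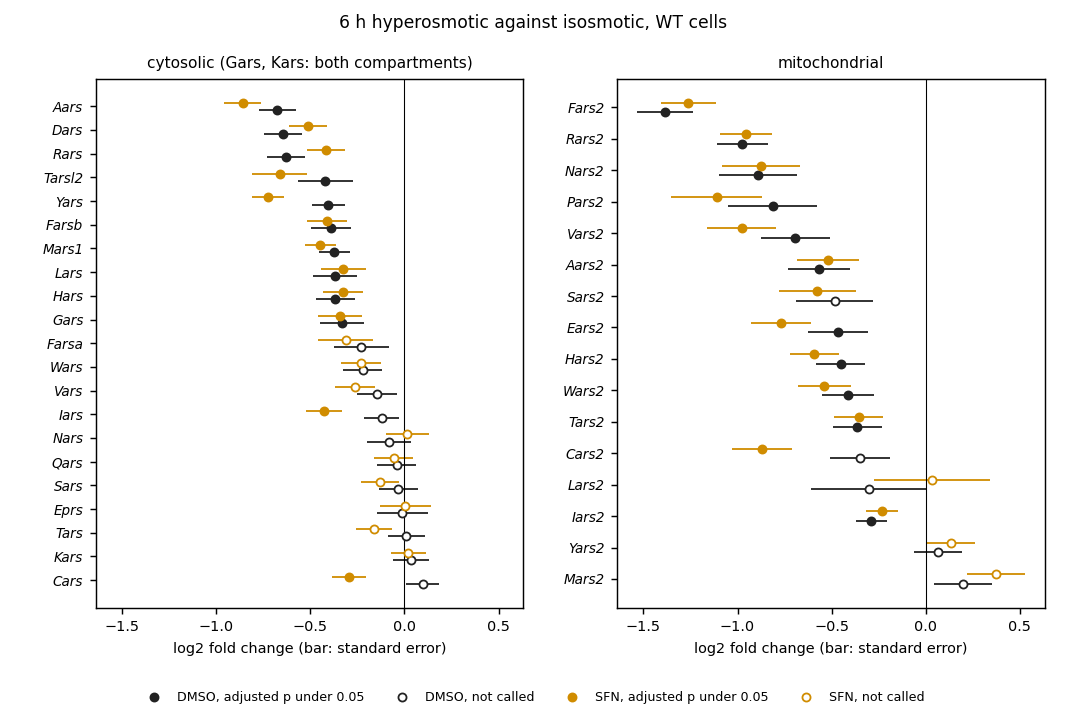
Log2 fold change (points) with standard error (bars) of 37 synthetase genes at 6 h of hyperosmotic stress against isosmotic WT cells, with DMSO in black and SFN in orange. Filled points passed an adjusted p of 0.05; in both pretreatments Fars2 lies farthest to the left.

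In SFN-pretreated WT cells, 26 of the 38 genes fell at 6 h and 0 rose, against 22.9% of all genes lower and 24.7% higher (31.3% and 20% with total-count scaling). These were 14 mitochondrial enzymes, 11 cytosolic enzymes and Gars, and the medians were -0.59 and -0.32 for mitochondrial and cytosolic enzymes. This comparison shares no library with that in DMSO cells. All 22 genes lower in DMSO cells were lower in SFN cells too (100% of the first list and 84.6% of the second), and the 4 others were Cars, Cars2, Iars and Sars2. The same overlap over all genes is not given here, so whether it is particular to the members cannot be read from it. Of all genes 0.041% were higher and 0% lower with SFN than with DMSO at 6 h. Cars2 (mitochondrial cysteinyl) was at 24.3 and 29.0 CPM in isosmotic SFN cells and 14.9 and 14.3 CPM at 6 h, a log2 fold change of -0.87 ± 0.16 (adjusted p 0.000423). Iars was at 289 and 318 CPM before and 232 and 219.8 CPM after 6 h, a log2 fold change of -0.43 ± 0.0936 (adjusted p 0.00173). The test of the difference between the SFN and DMSO responses at 6 h called 0 of the 38 genes, where 0.595% of all genes were called higher and 0.164% lower. At an unadjusted p under 0.05 there were 4, and DESeq2 called 1, Cars. Without Nrf2-/- SFN 1 h replicate 1 and without Nrf2-/- SFN 1 h replicate 2 there was 1 call each.

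When each mitochondrial enzyme was set beside the cytosolic enzyme for the same amino acid, the mitochondrial one had the lower log2 fold change at 6 h in 13 of 17 pairs with DMSO and 12 of 17 with SFN. Eprs, which serves glutamate and proline, was the partner of both Ears2 and Pars2, so the pairs are not all separate. The median difference was -0.37 with DMSO and -0.45 with SFN. The mitochondrial value was also the lower in 11 of 17 pairs at 1 h with DMSO and in 11 of 17 with SFN in isosmotic cells, where the median difference was -0.04 each, so the number of pairs alone sets 6 h little apart. The gap was widest for phenylalanine in DMSO cells, where Fars2 was at -1.39 and the mean of Farsa and Farsb at -0.31. It was also wide for asparagine (Nars2 -0.89, Nars -0.08) and for proline (Pars2 -0.81, Eprs -0.01). The exceptions with DMSO were methionine, tyrosine, alanine and leucine. Members are not replicates of a condition, so these medians carry no p-value.

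The number of genes lower at 6 h in DMSO cells depended on single libraries. It was 14 without WT DMSO isosmotic replicate 2, 13 without WT DMSO 6 h replicate 1 and 12 without WT DMSO 6 h replicate 2, with 0 higher each time. With at least 10 counts required in every library, 13 were lower and 1, Cars, was higher. Aars, Dars, Fars2, Mars1, Nars2, Rars, Rars2 and Yars were called lower under all alternatives run. Epithelial transcription factor genes were at other levels at 6 h too. Pax2 was at 123 to 162 CPM in isosmotic and 1 h WT libraries and 856 to 1040 CPM at 6 h, and Pax8 at 96.8 to 110 and 604 to 663 CPM. Summed duct markers were at 2111 to 2886 CPM in the former and 3855 to 4109 CPM in the latter, and summed markers of other cells at 5.87 to 10.7 and 17.4 to 22.1 CPM. Their part in the result was not tested.

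At 1 h few members had changed, and Mars2 was called in both pretreatments. In DMSO cells 1 of 38 genes fell and 0 rose, against 4.11% of all genes lower and 7.1% higher. Mars2 was at 47.0 and 35.1 CPM in isosmotic and 24.98 and 25.8 CPM in 1 h libraries, a log2 fold change of -0.69 ± 0.157 (adjusted p 0.0108). The 1 h libraries were below both controls. Pars2 had a similar log2 fold change, -0.73 ± 0.234, that did not pass the test. In SFN cells Mars2 fell by 0.54 ± 0.157 on the log2 scale (adjusted p 0.0437), from 35.4 and 40.1 CPM to 27.6 and 24.3 CPM, and Cars2 fell by 0.57 ± 0.158 on the log2 scale (adjusted p 0.0341). These were 2 of 38 genes, against 3.58% of all genes lower and 5.94% higher.

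Between 1 h and 6 h, Mars2 rose. It was at 49.9 and 44.3 CPM in DMSO and 53.8 and 44.0 CPM in SFN cells at 6 h, with log2 fold changes against 1 h of 0.89 ± 0.158 and 0.91 ± 0.158 (adjusted p 0.000346 and 0.000288), and both calls held under all alternatives run. It was the single member higher at 6 h than at 1 h in each pretreatment, where 20.4% (DMSO) and 20.9% (SFN) of all genes were higher. In the same comparisons 19 genes with DMSO and 22 with SFN were lower, against 22% and 21.7% of all genes (30.6% and 29.8% with total-count scaling, where 16% and 16.8% were higher). Fars2 was lower in both, at -1.40 and -1.29. The 1 h calls of Mars2 were not stable: with DMSO the call was lost without WT DMSO isosmotic replicate 1 and without either 1 h library, and with SFN it held under 13 of 25 alternatives. The count with DMSO was 2 without any 1 of the 4 Nrf2-/- libraries. The count with SFN was 0 without any 1 of the 4 libraries compared, 1 without any 1 of the WT DMSO 1 h, WT DMSO 6 h, WT SFN 6 h or Nrf2-/- SFN isosmotic libraries and 4 without Nrf2-/- SFN 1 h replicate 1 or replicate 2. The number of genes called at 6 h against 1 h was 20 with DMSO, 12 without WT DMSO 1 h replicate 2 and 11 without WT DMSO 6 h replicate 1. With SFN it was 23, and it was 13 without WT SFN 1 h replicate 1, WT SFN 1 h replicate 2 or WT SFN 6 h replicate 1 and 14 without WT SFN 6 h replicate 2.

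**Figure D3:**
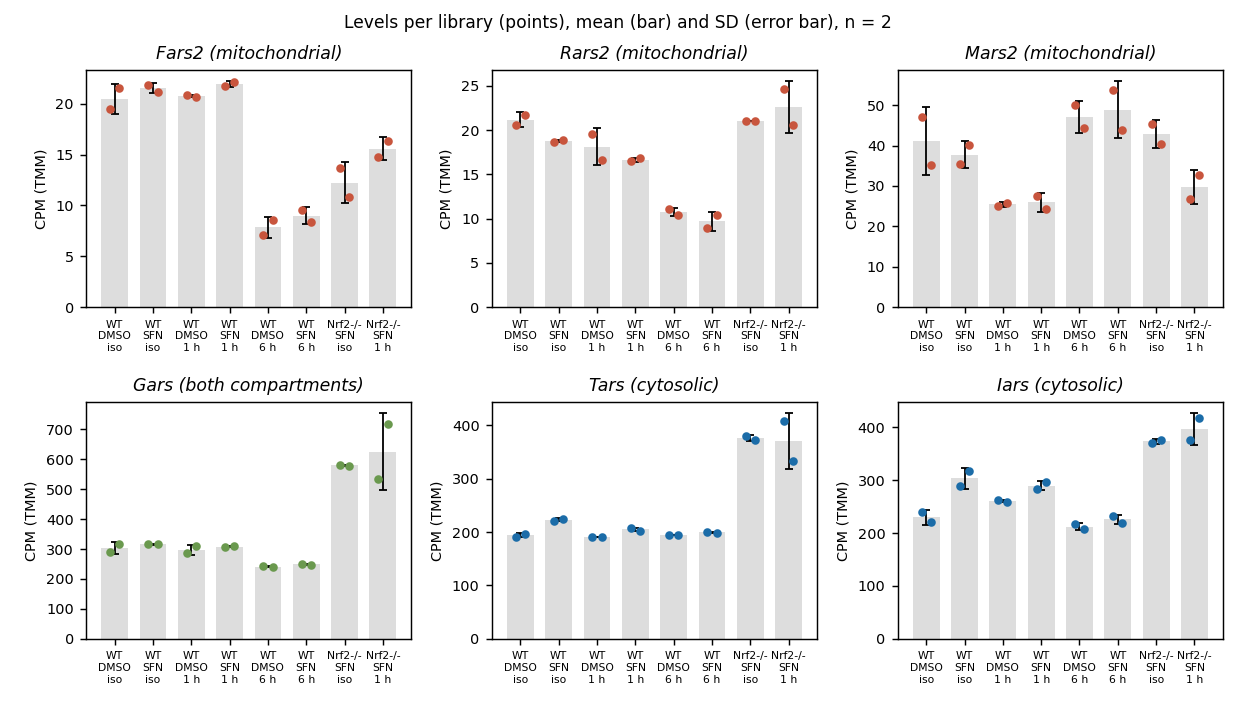
CPM of 6 synthetase genes in each library (points), with the mean of the 2 libraries (bar, from 0) and their SD (error bar), by group. Fars2 and Rars2 are low at 6 h, Mars2 is low at 1 h, and Gars and Tars are highest in Nrf2-/- cells.

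With SFN, 1 synthetase gene passed the test. In isosmotic WT cells 1 of 38 genes was higher with SFN than with DMSO and 0 lower, against 1.09% and 1.76% of all genes. This was Iars, at 239.9 and 220.4 CPM with DMSO and 289 and 318 CPM with SFN, a log2 fold change of 0.40 ± 0.0935 (adjusted p 0.0332). Both SFN libraries were above both DMSO libraries. Cars2 (0.51 ± 0.157), Yars (0.27 ± 0.0854), Cars (0.26 ± 0.0892), Aars (0.22 ± 0.0972) and Tars (0.20 ± 0.0961) had positive log2 fold changes that did not pass the test. The calls depended on the libraries in the fit. With the 12 WT libraries alone, 6 genes were higher, Aars, Cars, Cars2, Iars, Tars and Yars, where 8.28% of all genes were higher and 6.88% lower. The count was also 6 without Nrf2-/- SFN 1 h replicate 1 and without Nrf2-/- SFN 1 h replicate 2. Leaving out any of the other 14 libraries removed the call of Iars, with log2 fold changes from 0.33 to 0.47 over all 16 and an adjusted p of up to 0.347.

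With SFN against DMSO after 1 h and after 6 h of stress, 0 of 38 genes were called. Of all genes 0.0923% were higher at 1 h and 0.041% at 6 h, and 0% were lower at either time. At an unadjusted p under 0.05 there were also 0 members at each time, and DESeq2 called 0. With the 4 libraries of the 1 h comparison alone, 6 genes were called, with Aars, Iars, Lars2, Nars and Yars higher and Tars2 lower. In that fit 3.04% of all genes were higher and 1.91% lower. Aars then had a log2 fold change of 0.18 ± 0.0284 (adjusted p 5.19e-05), where the fit of all libraries gave 0.18 ± 0.0972 (adjusted p 1). Of 11 synthetase genes listed as ATF4 targets (Aars, Cars, Eprs, Gars, Iars, Mars1, Nars, Sars, Tars, Wars and Yars), the log2 fold change with SFN was above 0 in 10 of 11 under isosmotic conditions, 11 of 11 at 1 h and 7 of 11 at 6 h, with medians of 0.08, 0.10 and 0.03. The median of all genes was 0.00 in each of these comparisons.

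In Nrf2-/- cells 8 cytosolic synthetase transcripts and Gars were higher under isosmotic conditions than in WT cells with the same SFN treatment. Under isosmotic conditions 9 of 38 genes were higher and 8 lower, against 15.7% and 18.4% of all genes, so that the share of members that were lower was near that of all genes. Of the 19 cytosolic enzymes 8 were higher and 3 lower, with a median log2 fold change of 0.25. Of the 17 mitochondrial enzymes 0 were higher and 5 lower, with a median of -0.23. The median of all genes tested was 0.00.

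Gars (chr6:55038007-55079500) was at 315 and 317 CPM in WT SFN and 582 and 577 CPM in Nrf2-/- SFN isosmotic cells. Its log2 fold change was 0.87 ± 0.118 (adjusted p 4.08e-05), the largest among the members. Tars (chr15:11382301-11399665) was at 222 and 225 CPM in WT and 381 and 372 CPM in Nrf2-/- cells, a log2 fold change of 0.75 ± 0.0965 (adjusted p 2.54e-05). Lars (leucyl) was at 200.4 and 203 CPM in WT and 329 and 319 CPM in Nrf2-/- cells (0.69 ± 0.118), and Nars at 388 and 374 against 602 and 621 CPM (0.68 ± 0.115). The groups did not overlap in any of these genes.

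Dars, Eprs (glutamyl and prolyl), Farsb, Cars and Iars were also higher, with log2 fold changes from 0.30 (Iars) to 0.54 (Dars). Iars was at 370.0 and 377 CPM in Nrf2-/- SFN cells, above both WT SFN and both WT DMSO isosmotic libraries. Farsb and Farsa encode the 2 subunits of the cytosolic phenylalanyl enzyme. They moved in opposite directions, with Farsb at 0.34 ± 0.106 and Farsa at -0.51 ± 0.146 (adjusted p 0.0214 and 0.0134). Hars (histidyl) was lower too, at 151 and 129.6 CPM in WT and 96.3 and 88.1 CPM in Nrf2-/- cells, with a log2 fold change of -0.60 ± 0.106 (adjusted p 0.00046), as was Qars (glutaminyl) at -0.32 ± 0.103.

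Aars2, which charges mitochondrial tRNA with alanine, was at 31.8 and 28.8 CPM in WT and 16.2 and 14.1 CPM in Nrf2-/- isosmotic cells. Its log2 fold change was -0.999 ± 0.167 (adjusted p 0.00029). Fars2 was at 21.9 and 21.2 CPM in WT and 13.7 and 10.8 CPM in Nrf2-/- cells (log2 fold change -0.81 ± 0.144), and Sars2 (mitochondrial seryl) at 21.8 and 22.3 against 12.7 and 12.5 CPM (-0.80 ± 0.205). Tars2 (mitochondrial threonyl) was at 119 and 111 against 71.5 and 68.4 CPM (-0.72 ± 0.13), and Cars2 had a log2 fold change of -0.55 ± 0.158. In Aars2, Fars2, Sars2 and Tars2 both Nrf2-/- libraries were below both WT libraries.

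**Figure D4:**
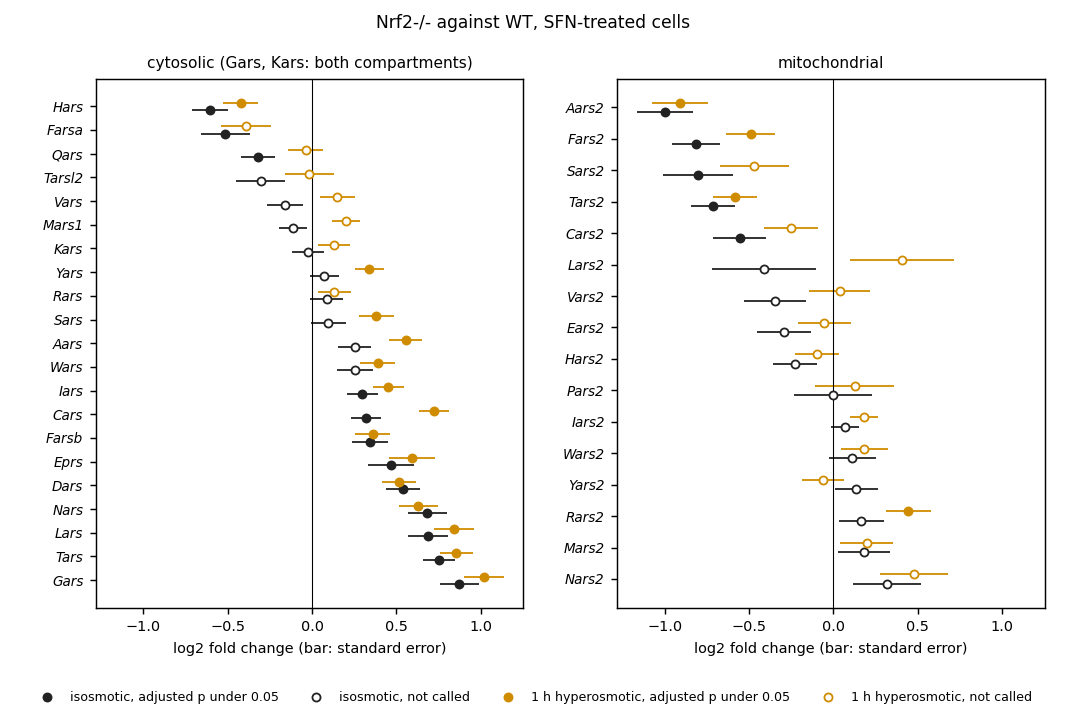
Log2 fold change (points) with standard error (bars) of 37 synthetase genes in Nrf2-/- against WT cells, both with SFN, under isosmotic conditions (black) and after 1 h of hyperosmotic stress (orange). Filled points passed an adjusted p of 0.05; Gars, Tars, Lars and Nars lie to the right at both times, and Aars2, Fars2 and Tars2 to the left.

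After 1 h of stress 15 of 38 genes were higher and 4 lower in Nrf2-/- than in WT cells, against 15.3% and 16.2% of all genes (12.4% and 19.6% with total-count scaling). All 9 genes higher under isosmotic conditions were higher again. These 2 comparisons share no library, but both set Nrf2-/- cells, from a number of clones not given, against WT cells in 1 fit. They are therefore not shown to be independent, and the share of all genes called in both is not given here. Gars was at 308 and 309 CPM in WT and 534 and 716 CPM in Nrf2-/- cells, a log2 fold change of 1.02 ± 0.118 (adjusted p 1.07e-05), and Tars at 207 and 203 against 408 and 334 CPM (0.85 ± 0.0967, adjusted p 8.58e-06). Aars, Sars, Wars, Yars and the mitochondrial Rars2 were higher at 1 h in addition. Aars2, Fars2, Hars and Tars2 were lower, as they were under isosmotic conditions, and made up 50% of the genes lower then and 100% of those lower at 1 h. Of the cytosolic enzymes 12 were higher and 1 lower, with a median log2 fold change of 0.38. Of the mitochondrial enzymes 2 were higher and 3 lower, with a median of 0.04.

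The 1 h comparison rests on the Nrf2-/- pair with the wide spread. With its 4 libraries alone, 1 gene was called, Cars, at a log2 fold change of 0.72 (adjusted p 0.0443), while Gars and Tars had adjusted p of 0.0514 and 0.0515. In that fit 4.6% of all genes were higher and 5.49% lower. The count of 19 was 12 without WT SFN 1 h replicate 1 and 12 without WT SFN 1 h replicate 2. For isosmotic cells the count of 17 was 11 without WT SFN isosmotic replicate 1 and 11 without Nrf2-/- SFN isosmotic replicate 2, and Aars2, Dars, Fars2, Gars, Hars, Lars, Nars, Tars and Tars2 were called under all alternatives run. Markers of duct identity were at other levels in the 2 genotypes, where Pax2 was at 22.4 to 28.1 CPM and Cdh16 at 13.4 to 25.2 CPM in Nrf2-/- libraries, against 123 to 162 and 173 to 215 CPM in isosmotic and 1 h WT libraries, while Epcam was at 180 to 368 against 50.3 to 92.4 CPM. Summed over the 12 duct markers, levels were at 2175 to 2574 CPM against 2111 to 2886 CPM, and summed over the 11 markers of other cells at 0.614 to 2.05 against 5.87 to 10.7 CPM. Their part in the result was not tested.

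Within Nrf2-/- cells, 1 h of stress called 0 of 38 genes, against 4.36% of all genes higher and 2.81% lower. At an unadjusted p under 0.05 there were 9, and DESeq2 called 1, Lars2, which was higher. Without Nrf2-/- SFN 1 h replicate 1 there were 10 calls and without Nrf2-/- SFN 1 h replicate 2 there were 8, and without either WT DMSO isosmotic library there were 2. Mars2, which fell at 1 h in WT cells, was at 45.3 and 40.4 CPM before and 26.8 and 32.8 CPM after 1 h in Nrf2-/- cells, a log2 fold change of -0.52 ± 0.157 with an adjusted p of 0.0598. The test of whether the 1 h response differed between genotypes called 0 genes, against 0.0615% of all genes in each direction, with 4 members at an unadjusted p under 0.05 and 0 by DESeq2. It called 8 without Nrf2-/- SFN 1 h replicate 1 and 4 without Nrf2-/- SFN 1 h replicate 2. The test of whether SFN acted differently at 1 h than under isosmotic conditions in WT cells likewise called 0, against 0.487% of all genes higher and 0.0718% lower, with 1 member at an unadjusted p under 0.05 and 0 by DESeq2.

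The pairing by amino acid showed the same order in Nrf2-/- cells. The mitochondrial enzyme had the lower log2 fold change in 13 of 17 pairs under isosmotic conditions and in 15 of 17 at 1 h, with median differences of -0.37 and -0.40. Threonine gave the widest gap, with Tars2 at -0.72 and Tars at 0.75 under isosmotic conditions. Alanine followed, with Aars2 at -0.999 and Aars at 0.25. Histidine was an exception, with Hars2 at -0.23 and Hars at -0.60.

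**Figure D5:**
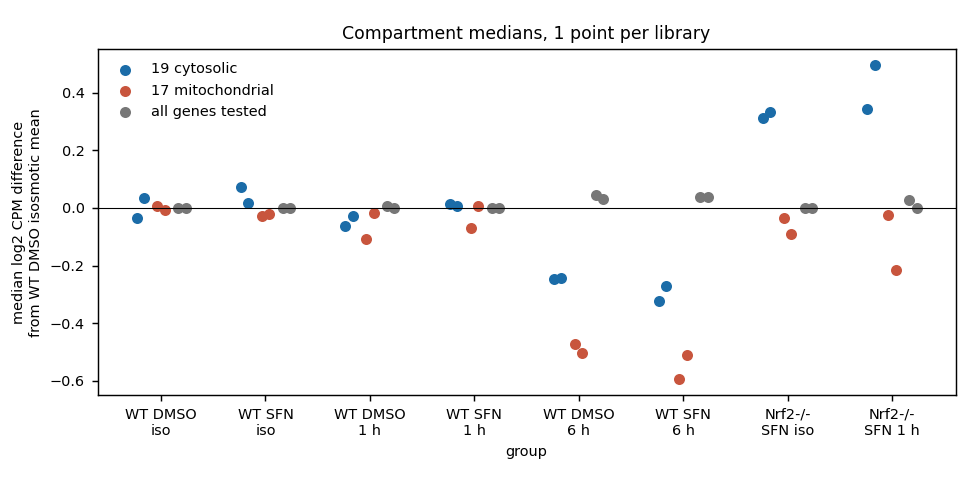
Median over 19 cytosolic, 17 mitochondrial and all genes tested of log2 CPM minus the WT DMSO isosmotic mean, 1 point per library. Mitochondrial medians lie below cytosolic ones in every 6 h WT library (-0.47 to -0.59 against -0.24 to -0.32) and in every Nrf2-/- library (-0.21 to -0.03 against 0.31 to 0.50). They also do in both WT SFN isosmotic libraries, by 0.10 and 0.04, while the order is mixed within the other isosmotic and 1 h WT pairs.

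The 11 synthetase genes listed as ATF4 targets accounted for 6 of the 9 genes higher in isosmotic Nrf2-/- cells, with a median log2 fold change of 0.30 and 0 lower. Of all genes 15.7% were higher and 18.4% lower there. At 1 h 10 of 11 were higher, all but Mars1, with a median of 0.56, against 15.3% of all genes higher and 16.2% lower. Of the list, only Cars was called with the 4 libraries of that 1 h comparison alone. The list, also used for SFN above, was chosen with earlier results of these data known, so its counts are a description. The 10 cytosolic or dual genes outside that list, Kars among them, had 3 higher and 3 lower under isosmotic conditions, with a median of -0.09, and 3 higher and 1 lower at 1 h, with a median of 0.13. Among the 14 cytosolic or dual genes with a promoter window, 3 of the 5 with the CARE letters were higher in isosmotic Nrf2-/- cells, as were 3 of the 9 without, and 5 of 5 and 4 of 9 were higher at 1 h. At 6 h in WT DMSO cells 4 of the 11 listed targets were lower, with a median of -0.12, and 6 of the 10 others, with a median of -0.37. The split by promoter letters had the other order there. With the CARE letters 3 of 5 genes were lower, with a median of -0.33, and without them 4 of 9, with a median of -0.23. Of all genes 22% were lower and 23.9% higher in that comparison.

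Other genes of the ATF4 pathway were read beside the synthetases. Of 12 such genes, 8 were higher and 0 lower in isosmotic Nrf2-/- cells, against 15.7% and 18.4% of all genes, and 9 higher and 0 lower at 1 h, against 15.3% and 16.2%. Asns (asparagine synthetase) went from 132 and 145 CPM in WT SFN to 429 and 406 CPM, a log2 fold change of 1.59 ± 0.138, and Trib3, an ATF4-induced pseudokinase, from 28.9 and 28.4 CPM to 68.6 and 68.3 CPM (1.26 ± 0.153). Atf4 itself had a log2 fold change of -0.11 ± 0.127 (adjusted p 0.565). At 6 h in WT DMSO cells 6 of the 12 were higher and 1 lower, against 23.9% and 22% of all genes, while with SFN 2 were higher and 4 lower, against 24.7% and 22.9%. With DMSO Atf4 rose, with a log2 fold change of 0.61 ± 0.128, and Trib3 fell by 2.11 ± 0.17 on the log2 scale. With SFN Atf4 had a log2 fold change of 0.25 ± 0.127 (adjusted p 0.116). The difference between these 2 responses of Atf4 was -0.36 ± 0.18 on the log2 scale (adjusted p 0.613). For SFN against DMSO, 3 of the 12 were higher and 0 lower in isosmotic WT cells, against 1.09% and 1.76% of all genes. At 6 h 0 of the 12 were called for SFN against DMSO, where 0.041% of all genes were higher and 0% lower.

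Members of the multisynthetase complex were called in part. Of its 8 synthetases (Dars, Eprs, Iars, Kars, Lars, Mars1, Qars and Rars), 4 fell at 6 h with DMSO and 0 rose, against 22% of all genes lower and 23.9% higher. In isosmotic Nrf2-/- cells 4 were higher and 1, Qars, was lower, against 15.7% and 18.4% of all genes. Its scaffold gene Aimp1 fell at 6 h, with a log2 fold change of -0.57 ± 0.109 (adjusted p 0.000673), while Aimp2, another scaffold, rose by 0.45 ± 0.114 on the log2 scale (adjusted p 0.00494). The third scaffold gene, Eef1e1, had a log2 fold change of -0.03 ± 0.127.

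Among 14 genes that act around tRNA charging, 6 fell and 3 rose at 6 h with DMSO, against 22% of all genes lower and 23.9% higher, so that the share that rose was near that of all genes. Sepsecs and Pstk, which make selenocysteinyl-tRNA, went from 26.4 and 24.8 to 8.69 and 9.54 CPM (log2 fold change -1.49 ± 0.146) and from 10.9 and 13.6 to 5.01 and 5.71 CPM (-1.19 ± 0.177). Qrsl1, a subunit of the enzyme that makes mitochondrial glutaminyl-tRNA, and Mtfmt, which formylates the mitochondrial initiator tRNA, fell by 0.98 ± 0.152 and 0.67 ± 0.177 on the log2 scale. Gatc, another subunit of the Qrsl1 enzyme, rose by 0.27 ± 0.096 on the log2 scale. Xpot, the exporter of tRNA from the nucleus, was at 187 and 164 CPM in WT DMSO isosmotic cells and 249 and 252 CPM at 6 h (0.52 ± 0.113), and at 213 and 227 CPM in WT SFN and 394 and 379 CPM in Nrf2-/- SFN isosmotic cells (0.81 ± 0.113). In those Nrf2-/- cells 3 of the 14 genes were higher (Aimp2, Trnt1 and Xpot) and 2 lower (Gatb and Sepsecs), shares near the 15.7% and 18.4% of all genes.

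Lars2, the mitochondrial leucyl enzyme, was the member with the widest ratio between libraries in the WT DMSO isosmotic and WT SFN 6 h pairs. It was at 339.5 and 151 CPM in the WT DMSO isosmotic pair, a ratio of 2.25 where the median member differed by 1.07, and at 184 and 298 CPM in the WT SFN 6 h pair. It was at 197 and 157 CPM in Nrf2-/- SFN isosmotic and 376 and 366 CPM in Nrf2-/- SFN 1 h libraries, a log2 fold change of 1.07 ± 0.311 that did not pass the test (adjusted p 0.0639). All 37 rows for genes of mitochondrial DNA held 0 counts in all libraries, so the mitochondrially encoded tRNAs could not be read beside these enzymes. In all, 21 of the 38 members overlap another annotated gene, 9 of them on the same strand, and reads from such stretches may have been split, lost or added.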

How the data were processed

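Raw counts per gene symbol were deposited by the authors, 1 file per library. Per the paper's methods, reads were aligned to mm10 with Hisat2, sorted with Samtools and counted with FeatureCounts; the submitters' processing notes name Bowtie2 in place of Hisat2. Versions, annotation and strand setting are not given in the sources used here. The extraction label names primary cells where all other labels name mIMCD3. Lines without a gene name (5) were left out.

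The members and gene lists were chosen with earlier results of these data known. Counts were analysed in R 4.3.3 with edgeR 4.0.16 (TMM scaling, filter on low counts keeping 19509 genes, robust quasi-likelihood test, 1 coefficient per group over all 16 libraries) and Benjamini-Hochberg adjustment over all genes tested, with calls at an adjusted p under 0.05. Values are TMM-scaled CPM, and ± gives the SE of a log2 fold change. All members may be named, with values for those called and the 3 at each end of a comparison. Positions and lengths came from GENCODE M21 (GRCm38, which is mm10), and promoters from RefSeq GRCm38.p6 by exact symbol. The scripts were tested on simulated data. Libraries of a pair differed by more than counting noise (mean chi-square per gene of at least 3.27). Alternatives were DESeq2 1.42.0, RLE size factors, other filters, fewer libraries, a replicate block and each library left out, and 2 were added after seeing the data: total counts without TMM, and the fit without both Nrf2-/- SFN 1 h libraries. Values of 1 member are not reported here by name and not drawn, though it stays in the counts and medians.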

Additional observations from a re-analysis of the deposited data

How the results depend on the processing

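Of 131 calls of a single gene in a single comparison, none changed direction under any alternative run; of 3220 recomputed values 2851 stayed on their side of the threshold and 369 lost it. Each group held 2 libraries, and the lowest count of a member in a library was 104. The 1 h comparisons and those of SFN changed most. The causes were not tested, beyond the fewer genes or libraries that some alternatives hold by construction.

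The number of genes called changed by more than 1.5 times as follows. With DESeq2 it was 4 for SFN in isosmotic cells, 1 for 1 h of stress in Nrf2-/- cells and 1 for the SFN difference at 6 h. With RLE size factors it was 1 for 1 h with SFN. With no filter on low counts it was 2 for 1 h with DMSO, 2 for 1 h in Nrf2-/- cells and 1 for the genotype difference at 1 h. With at least 10 counts required in every library it was 14 for 6 h with DMSO and 0 for 1 h with SFN. With total counts in place of TMM it was 1 for 1 h in Nrf2-/- cells. With only the libraries compared it was 3 for 1 h with DMSO, 4 for 1 h with SFN, 2 for SFN in isosmotic cells, 6 for SFN at 1 h and 1 for Nrf2-/- against WT at 1 h. With the 12 WT libraries it was 3 for 1 h with DMSO, 5 for 1 h with SFN, 6 for SFN in isosmotic cells and 1 for the SFN difference at 6 h. Without both Nrf2-/- SFN 1 h libraries these 4 counts were 2, 4, 6 and 1. The shares of all genes called changed with the fit too. For SFN in isosmotic cells they were 8.28% higher and 6.88% lower with the 12 WT libraries.

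Leaving out each library in turn gave 0 to 2 calls at 1 h with DMSO, 12 to 27 at 6 h with DMSO, 11 to 27 at 6 h against 1 h with DMSO, 0 to 4 at 1 h with SFN, 18 to 31 at 6 h with SFN and 13 to 29 at 6 h against 1 h with SFN. It gave 0 to 6 for SFN in isosmotic cells, 0 at every step for SFN at 1 h and 6 h, 11 to 21 and 12 to 27 for Nrf2-/- against WT under isosmotic conditions and at 1 h, 0 to 10 for 1 h in Nrf2-/- cells, 0 to 1 for the SFN difference at 6 h and 0 to 8 for the genotype difference at 1 h. The cytosolic minus the mitochondrial median log2 fold change ranged from -0.0143 to 0.14 at 1 h with DMSO, 0.14 to 0.33 at 6 h with DMSO, 0.09 to 0.22 at 6 h against 1 h with DMSO, 0.05 to 0.18 at 1 h with SFN, 0.26 to 0.37 at 6 h with SFN and 0.16 to 0.23 at 6 h against 1 h with SFN. It ranged from 0.03 to 0.10 for SFN in isosmotic cells, 0.03 to 0.09 for SFN at 1 h, 0.0118 to 0.11 for SFN at 6 h, 0.34 to 0.51 for Nrf2-/- against WT under isosmotic conditions, 0.25 to 0.44 at 1 h and -0.0702 to 0.23 for 1 h in Nrf2-/- cells.

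By the check used, the shared replicate numbers did not pair the libraries: deviations from the group means had correlations over 0.1 in 1 of 28 pairs of groups (-0.0794 to 0.123). The titles gave these numbers, but for isosmotic WT SFN the files themselves are numbered differently, so the check and the block are uncertain for that group. With a replicate block the count for SFN in isosmotic cells was 0, and 127 of the 131 calls were kept.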
